A study of Sus scrofa with 24 samples.

Results

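The genes described here encode the proteasome of the pig: its core, its regulatory particle, its activators, its inhibitor and its assembly chaperones. They were taken from the gene table by symbol, as PSM followed by a letter from A to G and a number, which 49 of 20674 genes matched. PSMC3IP was among the 49, but it encodes a partner protein of PSMC3 and not a subunit, so 48 genes remained. PSMB11, the catalytic subunit of the thymus proteasome, had 0 counts in the 24 libraries, and PSMA8, the testis form of an alpha subunit, had 1 count in a single colon library. The other 46 had enough counts to be tested in every model.

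The proteasome degrades proteins that carry ubiquitin. Its 20S core is a barrel of stacked rings, with alpha subunits (PSMA genes) outside and beta subunits (PSMB genes) inside, and 3 of the beta subunits, PSMB5, PSMB6 and PSMB7, cut the protein chain. In immune cells and under interferon gamma they are replaced by PSMB8, PSMB9 and PSMB10, which form the immunoproteasome and change the peptides offered to T cells on MHC class I. The 19S particle binds ubiquitin, unfolds the protein with its ATPases (PSMC genes) and feeds it into the core. Most of its other proteins are encoded by PSMD genes, of which PSMD5, PSMD9 and PSMD10 are assembly chaperones of the 19S base rather than parts of the finished particle.

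RNA came from the colon and the ileum of sows at gestation day 114, with 3 libraries for each tissue and diet. HN sows ate 7.46% crude fibre with 0.05% N-carbamylglutamate (NCG, an analogue of the urea cycle activator N-acetylglutamate), and HF sows ate 7.46% crude fibre alone. LN sows ate 3.73% crude fibre with 0.05% NCG, and LF sows ate 3.73% crude fibre alone. Whether a group's 3 libraries represent 3 sows, and whether a sow gave both tissues, is not stated in the labels, so p-values measure only the spread between libraries, which may be technical.

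Library totals ran between 14843272 and 18575695 counts in the colon and between 11951729 and 19896941 in the ileum. The colon genes HOXB13 and HOXD13 were at 0 in 9 and 6 of the 12 ileum libraries and above 0 in every colon library. Of the ileum genes, FABP6 was at 0 in 1 ileum library and SLC10A2 in 5. Colon libraries HN 1 and LF 2 (replicate 1 of HN and replicate 2 of LF) stood apart: their 6 smooth muscle markers summed to 84050 and 88560 CPM (counts scaled to library size, with TMM factors), and their 5 enterocyte markers to 177 and 58.5 CPM, against a colon median of 3570 CPM. Colon results are also given without these libraries. In the ileum, FABP6 had 827, 4261 and 8416 CPM in HN 2, HF 2 and LF 1 and at most 38.0 CPM in the other 9 libraries, and the 5 detected B cell markers were highest in the same 3, at 978, 452 and 406 CPM. In such tissue pieces, fewer cells of a type and less RNA per cell cannot be told apart.

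Levels per gene length were compared first, as TMM-scaled FPKM averaged over all 24 libraries. The interferon-inducible activator subunit PSME1 stood highest at 210 FPKM, followed by its partner PSME2 at 148 FPKM. Within the 20S alpha ring the levels ran between 144 FPKM for PSMA6 and 25.6 FPKM for PSMA3, a 5.64-fold range. In the beta ring PSMB4 was highest at 125 FPKM and PSMB6 lowest at 60.1 FPKM, a 2.08-fold range. The wider alpha range rested on PSMA3, whose deposited length is 2799 bases. The next lowest alpha gene, PSMA5, had 63.3 FPKM.

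The 3 immunoproteasome genes were expressed at levels like those of the constitutive core. PSMB8 averaged 132 FPKM, PSMB9 72.4 FPKM and PSMB10 59.0 FPKM, beside 60.2 FPKM for PSMB5, 60.1 FPKM for PSMB6 and 110 FPKM for PSMB7, the subunits they replace. Among the 6 ATPases, PSMC3 was highest at 87.2 FPKM and PSMC4 lowest at 42.7 FPKM. The 14 PSMD genes spread 6.98-fold, between 82.1 FPKM for PSMD2, the scaffold protein of the base, and 11.8 FPKM for PSMD6, a lid subunit. The nuclear activator PSME4 was the lowest of the 46 at 8.08 FPKM. The 4 PSMG genes, which chaperone the assembly of the core, lay between 26.5 FPKM for PSMG1 and 14.2 FPKM for PSMG4.

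**Figure D1:**
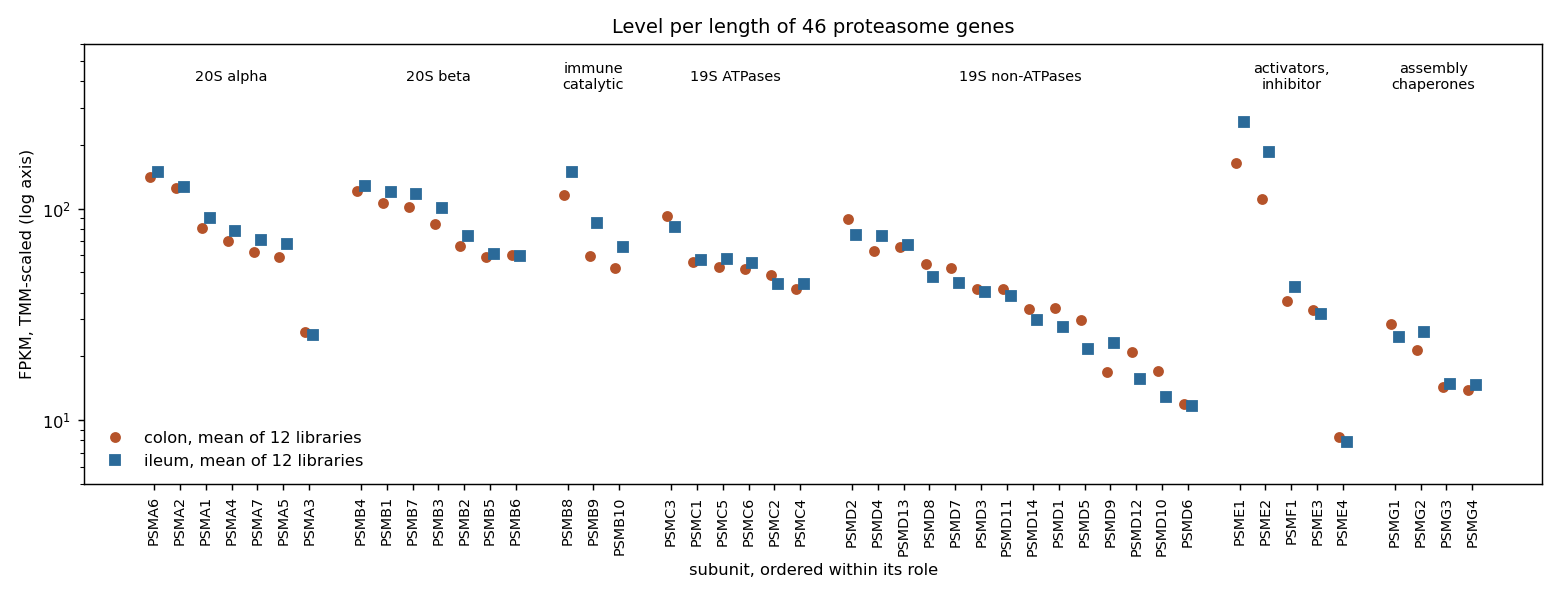
Mean level of each of the 46 tested genes in TMM-scaled FPKM (log axis), by role, with circles for the colon and squares for the ileum (12 libraries each). PSME1 and PSME2 stand at the top, and within most roles the colon and ileum symbols lie close together, apart from the immune catalytic genes and PSME1 and PSME2.

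Most of the machinery varied little between libraries. The median coefficient of variation within a diet and tissue group was 17.3% over the 46 genes and 26.6% over all 15675 genes tested. The sets were not matched for expression level, on which this measure depends. Among the 14 constitutive core genes the highest library exceeded the lowest by 1.77- to 2.90-fold, and among the 6 ATPases by 1.64- to 2.12-fold. For the 14 PSMD genes this ratio reached 3.59. The interferon-inducible genes varied more: the same ratio was 25.8 for PSMB9, 16.0 for PSMB8, 7.86 for PSMB10, 8.38 for PSME2 and 4.38 for PSME1. The lowest value of each of these genes was in colon HN 1 or LF 2, so the ratios rest on these libraries. Outside them PSMB9 was lowest at 36.2 CPM and PSMB8 at 67.4 CPM, both in colon LN 1. Of the lowest values of the 46 genes among the 12 colon libraries, 20 were in HN 1 and 10 in HN 2, and among the ileum libraries 18 were in HN 2 and 17 in LN 3.

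PSMB8, whose product replaces PSMB5, lies on chromosome 7 of Sscrofa11.1 from 25058456 to 25061666, and PSMB9 starts 10466 bases further on, with the peptide transporter gene TAP1 between them. In the colon, PSMB8 had 16.8, 151 and 148 CPM in HN, 205, 184 and 196 CPM in HF, 67.4, 141 and 268 CPM in LN, and 96.9, 26.5 and 181 CPM in LF. In the ileum it had 243, 191 and 145 CPM in HN, 183, 209 and 261 CPM in HF, 159, 144 and 101 CPM in LN, and 236, 185 and 107 CPM in LF. The lowest of the 24 values were those of colon HN 1 and LF 2. The HF libraries lay above all 3 HN and all 3 LF libraries in the colon and above all 3 LN libraries in the ileum, and the other diet groups of a tissue overlapped. The share of all genes with groups of 3 so separated was not counted, and edgeR called PSMB8 in no diet comparison.

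PSMB9, which replaces PSMB6, had 6.05, 63.0 and 71.1 CPM in colon HN, 118, 78.4 and 91.3 CPM in colon HF, 36.2, 59.5 and 117 CPM in colon LN, and 37.9, 7.65 and 95.6 CPM in colon LF. Its ileum values were 127, 56.9 and 76.8 CPM in HN, 106, 78.8 and 156 CPM in HF, 121, 73.8 and 45.1 CPM in LN, and 89.3, 110 and 73.3 CPM in LF. The same colon libraries, HN 1 and LF 2, were the lowest of the 24. PSMB10, which replaces PSMB7, was also lowest there, with 13.6 CPM in colon HN 1 and 12.9 CPM in colon LF 2, against a lowest value of 31.3 CPM in the other colon libraries.

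The constitutive partners of PSMB8 and PSMB9 did not share those low values, whereas that of PSMB10 did in part. PSMB5 had 66.4, 65.0 and 87.5 CPM in colon HN, 98.3, 80.8 and 96.4 CPM in colon HF, 76.2, 53.0 and 73.7 CPM in colon LN, and 84.3, 77.2 and 105 CPM in colon LF. PSMB6 had its highest value of the 24 libraries, 99.8 CPM, in colon LF 2. PSMB7 had its lowest value of the 24, 59.6 CPM, in colon HN 1, and its next lowest colon value, 81.0 CPM, in colon LF 2, with ileum HN 2 and LN 3 at 78.4 and 80.1 CPM. On the FPKM scale, the ratio of PSMB8 to PSMB5 ran between 0.282 in colon HN 1 and 5.20 in ileum HN 2, that of PSMB9 to PSMB6 between 0.0843 in colon LF 2 and 2.37 in colon LN 3, and that of PSMB10 to PSMB7 between 0.156 in colon LF 2 and 0.790 in colon LN 3.

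**Figure D2:**
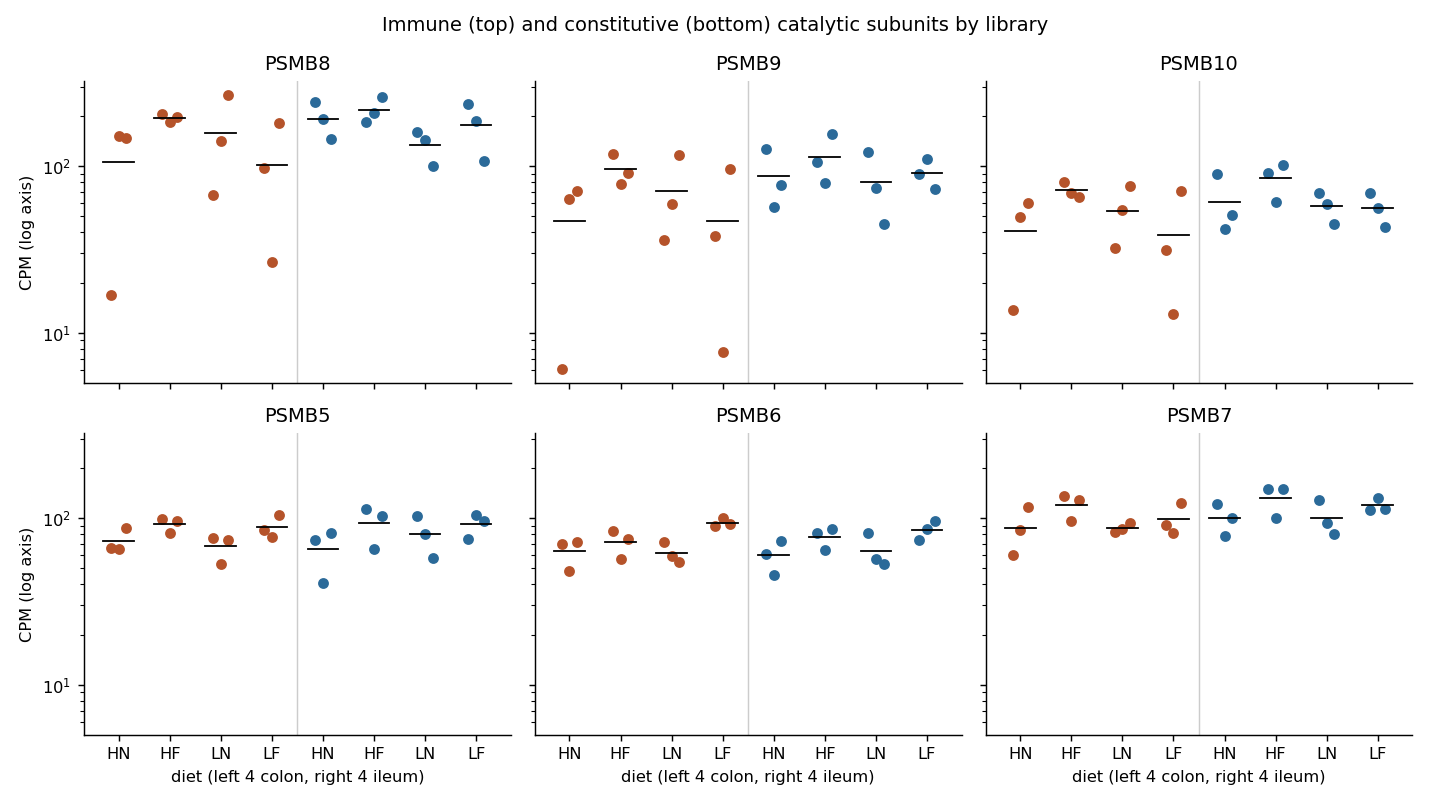
CPM (log axis) of the immune catalytic genes PSMB8, PSMB9 and PSMB10 above their constitutive counterparts PSMB5, PSMB6 and PSMB7, by diet, for 12 colon libraries (left) and 12 ileum libraries (right); points are libraries and bars are means of 3. In the upper row colon HN 1 and colon LF 2 fall far below the other points. In the lower row both lie among the others for PSMB5 and are the 2 lowest colon points for PSMB7. For PSMB6, colon HN 1 lies among the others and colon LF 2 is the highest point.

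The immune share, PSMB8, PSMB9 and PSMB10 as a percent of the summed FPKM of all 6 catalytic genes, put this on a single scale. In the colon it was 16.4, 56.8 and 50.3% in HN, 55.9, 58.8 and 53.9% in HF, 37.6, 56.0 and 67.3% in LN, and 38.8, 15.8 and 52.2% in LF. In the ileum it was 63.8, 62.7 and 51.8% in HN, 52.7, 59.9 and 60.5% in HF, 53.0, 54.7 and 50.1% in LN, and 59.8, 52.0 and 42.6% in LF. In 19 of the 24 libraries it lay at or above 50.1%.

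The other 5 libraries had the 5 highest sums of smooth muscle markers. These were colon LF 2 (88560 CPM), colon HN 1 (84050 CPM), colon LF 1 (69920 CPM), colon LN 1 (50840 CPM) and ileum LF 3 (36220 CPM). Colon LN 2 and LF 3, with sums of 27310 and 24830 CPM, had shares of 56.0% and 52.2%. T and NK cell markers were lowest in colon LF 2 and HN 1, where the 9 genes summed to 23.95 and 42.2 CPM, against a colon median of 289 CPM. The part of these cell types in the share was not tested.

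**Figure D3:**
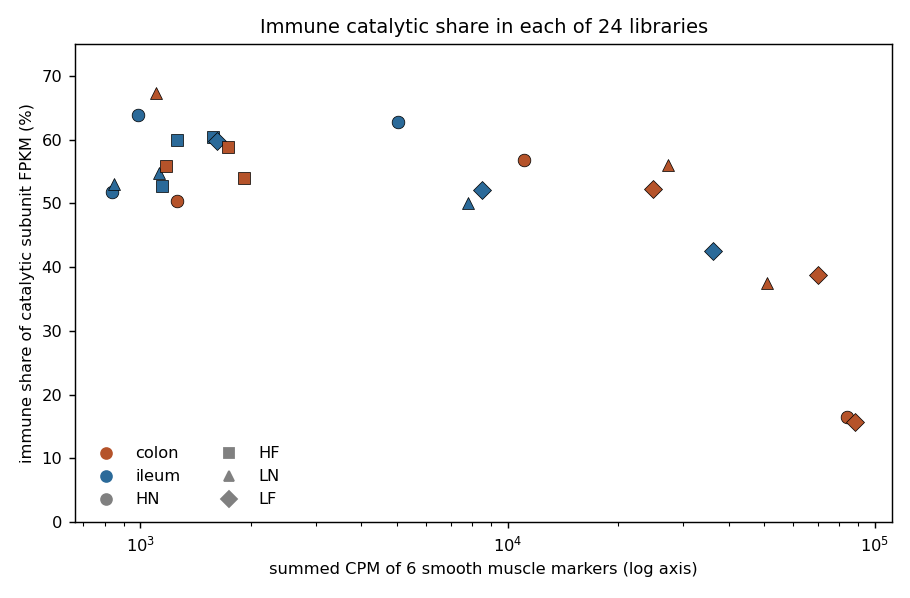
Immune share of the catalytic subunits (percent of summed FPKM) against the summed CPM of 6 smooth muscle markers (log axis) in each of 24 libraries, with the tissue as colour and the diet as symbol. The 5 libraries with marker sums of 36220 CPM and more have the 5 lowest shares, between 15.8% and 42.6%, and 4 of the 5 are colon libraries.

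Colon was then compared with ileum over the 4 diets, in a single edgeR quasi-likelihood model of all 24 libraries with Benjamini-Hochberg adjustment at 0.05. Of the 46 genes, 7 differed, 2 higher and 5 lower in the colon, whereas 28.4% of all genes tested did (12.5% higher and 15.9% lower), so the share among the proteasome genes was below that of all genes. At an unadjusted p under 0.05 there were 12 of the 46, beside 40.1% of all genes. With the trend of each library with gene length removed, 11 were called, 8 higher and 3 lower (29.8% of all genes), and the median log2 change of the 46 was 0.13, against -0.06 without that step. No core alpha or beta gene and no ATPase was among the 7. Each of the 7 had overlapping values in the 12 colon and 12 ileum libraries.

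The activator pair PSME1 and PSME2 differed most in size. Both genes lie on chromosome 7, with a gap of 3958 bases between them. PSME1 overlaps EMC9 on the opposite strand by 88 bases, and since the counting is not stated to use strand, reads from the overlap cannot be assigned; EMC9 had 4277 counts in all, against 74891 for PSME1. PSME1 had a lowest value of 74.0, a median of 174 and a highest value of 230 CPM in the colon, and 176, 241 and 324 CPM in the ileum. PSME2 had 30.3, 91.3 and 154 CPM in the colon and 86.0, 134 and 253 CPM in the ileum, in the same order. The log2 change was -0.66 ± 0.18 (SE) for PSME1 (adjusted p = 0.011) and -0.75 ± 0.24 for PSME2 (adjusted p = 0.0264). The 3 immunoproteasome genes had negative changes too, of -0.40 ± 0.32 for PSMB8, -0.56 ± 0.37 for PSMB9 and -0.36 ± 0.26 for PSMB10, none of which passed the test (adjusted p = 0.383, 0.27 and 0.317).

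Among the PSMD genes the calls went in both directions. PSMD5, a chaperone of the 19S base, had a lowest value of 43.7, a median of 69.3 and a highest value of 91.7 CPM in the colon, and 33.6, 46.3 and 60.4 CPM in the ileum, with a log2 change of 0.45 ± 0.13 (adjusted p = 0.0162). PSMD9, another chaperone of the base, went the other way, with 32.2, 41.9 and 55.9 CPM in the colon and 44.7, 55.9 and 74.2 CPM in the ileum, and a log2 change of -0.45 ± 0.11 (adjusted p = 0.00506). The third such chaperone, PSMD10, had a change of the size of PSMD5 that fell short of the threshold (adjusted p = 0.052). The lid subunit PSMD12 was higher in the colon, by 0.43 ± 0.15 (adjusted p = 0.0463). The ubiquitin receptor PSMD4 (-0.24 ± 0.08, adjusted p = 0.0406) and the inhibitor PSMF1 (-0.23 ± 0.08, adjusted p = 0.049) were lower in the colon. Both lost their calls under RLE scaling, without the filter on low counts, and with the length trend removed, where their values were -0.032 and -0.025.

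**Figure D4:**
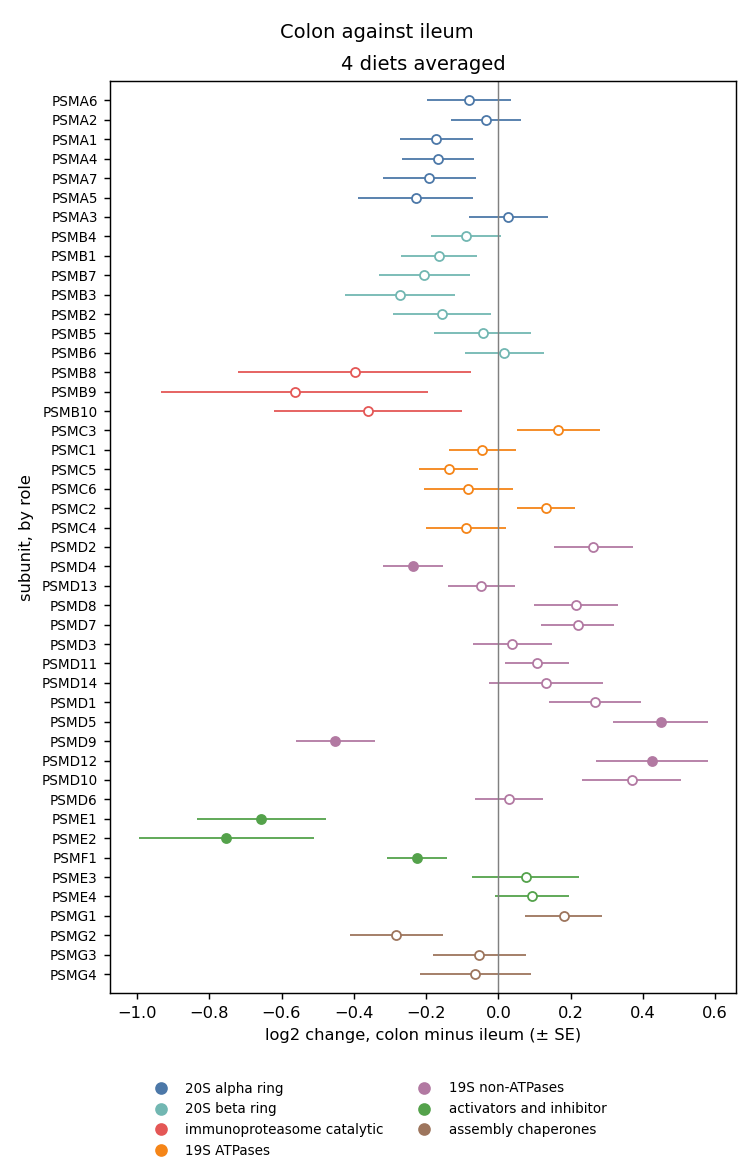
Log2 change between colon and ileum (colon minus ileum, 4 diets averaged) of the 46 genes by role, with bars of ± 1 SE from the model of 24 libraries; filled points passed an adjusted p of 0.05. The alpha ring, beta ring and ATPase genes have open points between -0.27 and 0.17, and 6 of 7 genes of each ring lie left of 0. PSME1 and PSME2 lie farthest to the left, and PSMD5 and PSMD9 lie on opposite sides of 0.

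PSMD5, PSMD9 and PSME1 kept their calls when any 1 of the 24 libraries was left out (adjusted p of at most 0.0358, 0.0168 and 0.0258). PSMD5 lost its call without the 3 ileum libraries high in FABP6 (0.37, adjusted p = 0.063). PSME1 and PSME2 lost theirs when the colon and ileum libraries of the same diet and replicate number were joined as a block. Of the single omissions, PSME2 lost its call in 8 (ileum HN 1, HF 3, LN 1 and LF 2, and colon LN 1, LN 2, LF 1 and LF 2; adjusted p up to 0.0583). PSMD12 remained called only without ileum HN 2, LN 1, LN 3 or LF 3, or colon HN 2, HN 3, HF 2, LN 2, LN 3, LF 1 or LF 3, and was lost in the other 13 (up to 0.0978). PSMD4 was lost in 15 (up to 0.135) and PSMF1 in 19 (up to 0.131), so these calls rest on nearly the whole set of libraries. With colon HN 1 and LF 2 both left out, an alternative chosen after the data were seen, 4 calls remained, PSMD4, PSMD5, PSMD9 and PSME1, beside 25.3% of all genes. The log2 change was then -0.49 for PSME1, -0.56 for PSME2 (adjusted p = 0.0639), -0.13 for PSMB8, -0.29 for PSMB9 and -0.14 for PSMB10. In the model of all 24 libraries, edgeR also called 3 of 9 T and NK cell markers and 2 of 5 B cell markers lower in the colon, and 5 of 6 smooth muscle and 2 of 4 adipocyte markers higher. The part of these cell types in the differences was not tested.

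NCG was compared with no NCG within each tissue, averaged over both fibre levels, 6 libraries against 6. No proteasome gene passed the edgeR test in either tissue, yet nearly all had a negative log2 change. In the colon 0 of 46 were called, beside 0% of all genes tested. An unadjusted p under 0.05 was found there for 19 of the 46 and for 12.4% of all genes, and DESeq2 called PSMA1 and PSMG2 lower with NCG (3.3% of all genes called). Without colon HN 1 and LF 2, edgeR again called 0 of the 46, but 464 of all genes (3.06%), and without LF 2 alone 292 (1.91%). In the ileum 0 of 46 were called, beside 5.85% of all genes tested (5.42% higher and 0.43% lower). There 16 of the 46 and 21.5% of all genes had an unadjusted p under 0.05, and DESeq2 called 4, with PSMC1, PSMD2 and PSMG2 lower and PSME4 higher with NCG (12.1% of all genes called). Without ileum LN 1, edgeR called 3 of the 46 in the ileum, PSMA4, PSMB2 and PSMD8 (6.24% of all genes).

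The log2 change with NCG was negative for 43 of 46 genes in the colon, with a median of -0.31, and for 42 of 46 in the ileum, with a median of -0.27. Over all genes tested the medians were 0.06 in the colon and -0.07 in the ileum. Proteasome genes are short, with a median length of 1439 bases against 3695 bases for all genes tested. Tested genes whose length lay in the interquartile range of the 46 had medians of -0.11 in the colon and -0.19 in the ileum. With the trend of each library with gene length removed, the medians of the 46 were -0.22 in the colon and -0.16 in the ileum. When single libraries were left out, the median ran between -0.39 and -0.25 in the colon and between -0.38 and -0.22 in the ileum, and without colon HN 1 and LF 2 it was -0.36, with 43 of 46 negative.

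EdgeR called no smooth muscle, T and NK cell, B cell, macrophage or adipocyte marker in the same comparison. DESeq2 called 1 smooth muscle and 1 macrophage marker, both lower with NCG in the colon. In the colon 5 of 6 smooth muscle markers (median log2 change 1.79) and 9 of 9 T and NK cell markers (median 0.77) had positive values. So did all 5 tested B cell markers (median 1.20) and 3 of 5 macrophage markers (median 0.01). The smooth muscle sums ran between 1105 and 84050 CPM with NCG and between 1175 and 88560 CPM without. In the ileum all 3 tested adipocyte markers had positive values (median 4.36), each at an unadjusted p under 0.05. Their sums ran between 5.98 and 3508 CPM with NCG, the highest in LN 3, and between 3.72 and 18.0 CPM without. All 6 smooth muscle markers had negative values there (median -0.78), as had all 5 tested B cell markers (median -0.71) and all 5 macrophage markers (median -0.31). The part of these cell types in the proteasome values was not tested.

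The models of the tissues share no library, but whether they share sows is not known. Of the 46 genes, 42 (91.3%) had a negative log2 change in both tissues, as did 34% of the 14634 genes tested in both, and 3 had a positive one in both. Those 3 were PSMC6, an ATPase, PSMD12, a lid subunit, and PSME4, the nuclear activator. The gene with opposite signs was PSME2, with -0.28 in the colon and 0.041 in the ileum. With the length trend removed, 38 were negative and 4 positive in both tissues, PSME1 being the fourth. Of tested genes with a length in the interquartile range of the 46, 1755 of 2761 were negative in the colon and 1963 of 2781 in the ileum. Their share negative in both tissues was not counted. The 46 genes were read in the same libraries and are not independent observations, so the count of signs is not a test. Of their lowest colon values, 20 were in HN 1 and 10 in HN 2. Of their lowest ileum values, 18 were in HN 2 and 17 in LN 3, and all of these libraries had NCG.

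By role, the alpha ring had the lowest colon median (-0.40), followed by the 4 PSMG assembly chaperones (-0.39), the beta ring (-0.35) and the PSMD genes (-0.30). The PSMD genes here include the base chaperones PSMD5, PSMD9 and PSMD10. The ATPases (-0.27), the immune catalytic genes (-0.14), and the activators with the inhibitor (-0.12) came next. In the ileum the PSMG assembly chaperones were lowest (-0.53), followed by the beta ring (-0.41), the immune catalytic genes (-0.30) and the alpha ring (-0.26). The PSMD genes (-0.25), the ATPases (-0.22), and the activators with the inhibitor (-0.07) came next. The activators with the inhibitor held values of both signs, between -0.28 and 0.28 in the colon and between -0.37 and 0.40 in the ileum.

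PSMG2, which pairs with PSMG1 to start the alpha ring, had a lowest value of 16.2, a median of 20.3 and a highest value of 23.7 CPM in colon libraries with NCG, against 23.1, 28.8 and 41.5 CPM in those without. In the ileum it had 19.1, 23.4 and 33.3 CPM with NCG and 28.6, 35.1 and 44.5 CPM without. Both pairs of groups overlapped, in the colon by the LN 1 library alone. The log2 change was -0.55 ± 0.17 in the colon (adjusted p = 0.277) and -0.57 ± 0.19 in the ileum (adjusted p = 0.121). In the colon PSMA1, an alpha subunit, had 73.9, 80.7 and 96.7 CPM as lowest, median and highest values with NCG and 94.1, 114 and 150 CPM without, so that these groups overlapped too. Its log2 change was -0.50 ± 0.14 (adjusted p = 0.255). The lid enzyme PSMD14, which removes ubiquitin, had the most negative colon value of the 46 (-0.62).

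The constitutive catalytic genes had negative values in both tissues without passing the test. The log2 change of PSMB5 was -0.35 in the colon and -0.39 in the ileum, that of PSMB6 -0.38 and -0.42, and that of PSMB7 -0.30 and -0.35, in the same order of tissues. The immune genes PSMB8, PSMB9 and PSMB10 had -0.11, -0.21 and -0.14 in the colon and -0.30, -0.31 and -0.24 in the ileum. With the length trend removed these were -0.0080, -0.087 and -0.0080 in the colon and -0.15, -0.17 and -0.077 in the ileum, and without the 3 ileum libraries high in FABP6 the ileum values were -0.15, -0.27 and -0.11. Their colon values changed sign when single libraries were left out. Without HN 1 they were 0.13, 0.04 and 0.06, without LF 3 they were 0.24, 0.31 and 0.25, and without LN 1 that of PSMB8 was 0.06. Without both HN 1 and LF 2 they were -0.097, -0.21 and -0.15.

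PSMC6, PSMD12 and PSME4 had larger positive values in the ileum than in the colon, none past the threshold. In the colon PSME4 had a lowest value of 57.0, a median of 65.4 and a highest value of 97.0 CPM with NCG, against 49.1, 55.2 and 83.5 CPM without. In the ileum it had 58.1, 68.4 and 81.2 CPM with NCG, against 44.4, 53.4 and 58.4 CPM without, so the ileum groups overlapped by a single pair of libraries. Its log2 change was 0.28 ± 0.17 in the colon (adjusted p = 0.53) and 0.40 ± 0.14 in the ileum (adjusted p = 0.125), or 0.019 and 0.20 with the length trend removed. That of PSMD12 was 0.22 ± 0.25 in the colon and 0.45 ± 0.16 in the ileum, and that of PSMC6 was 0.11 ± 0.19 in the colon and 0.45 ± 0.17 in the ileum. Without colon HN 1 the colon values of PSMD12 and PSMC6 were -0.022 and -0.047. In that library the 3 genes had their highest colon levels, 135.5 CPM for PSMD12, 127 CPM for PSMC6 and 97.0 CPM for PSME4. Their deposited lengths are 3827, 1690 and 7754 bases, in the same order.

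**Figure D5:**
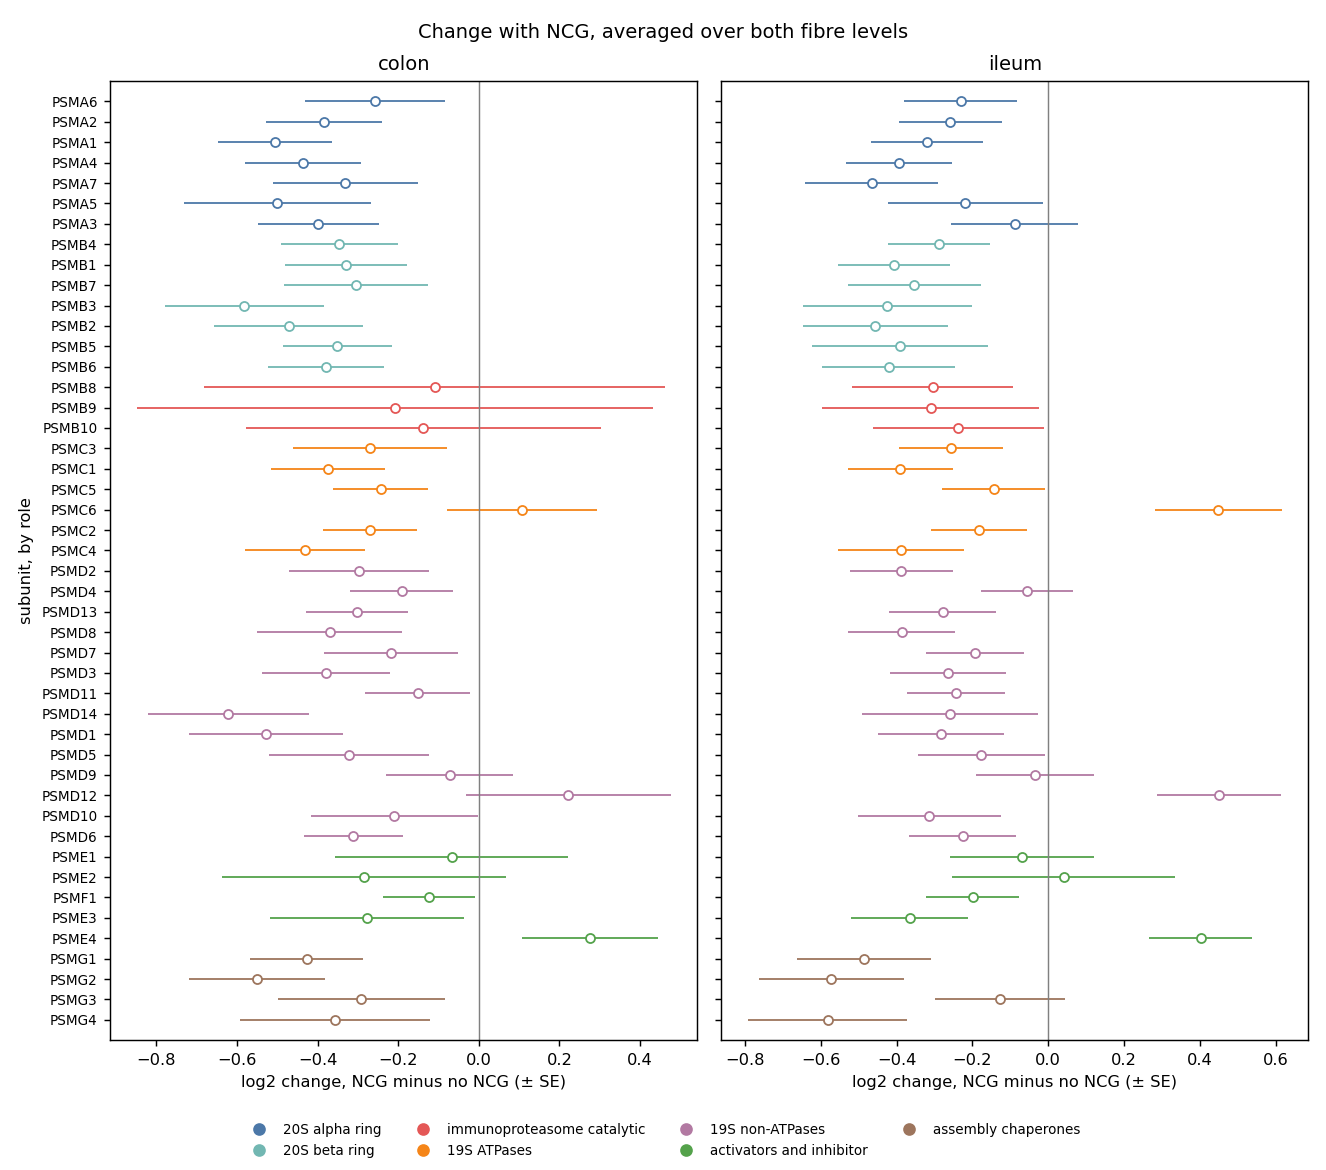
Log2 change with NCG (NCG minus no NCG, both fibre levels averaged) of the 46 genes by role in the colon (left) and ileum (right), with bars of ± 1 SE. Every point is open, since none passed an adjusted p of 0.05; 43 colon and 42 ileum points lie left of 0, and PSMC6, PSMD12 and PSME4 lie right of it in both panels.

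The change with NCG did not differ detectably between the tissues. The test of colon minus ileum called 0 of 46 genes in edgeR and in DESeq2, with 0 at an unadjusted p under 0.05. Of all genes, edgeR called 0% and DESeq2 0.0639%, and 2.99% had an unadjusted p under 0.05.

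High against low fibre, averaged over NCG, gave log2 changes of both signs. They ran between -0.41 and 0.25 in the colon, with 24 of 46 positive and a median of 0.01. In the ileum they ran between -0.30 and 0.41, with 18 positive and a median of -0.03, and edgeR and DESeq2 each called 0 of 46 in both tissues, with 0 at an unadjusted p under 0.05. Of all genes, edgeR called 0% in both tissues, DESeq2 called 0.142% in the colon and 0.00668% in the ileum, and 4.59% of colon and 5.26% of ileum genes had an unadjusted p under 0.05. The immune catalytic genes had positive values in both tissues, none past the threshold (adjusted p of at least 0.802). PSMB8 had 0.17 ± 0.57 in the colon and 0.41 ± 0.21 in the ileum, PSMB9 had 0.21 ± 0.64 and 0.22 ± 0.29, and PSMB10 had 0.25 ± 0.44 and 0.33 ± 0.23, in the same order. Without the 3 ileum libraries high in FABP6 the ileum values were 0.56, 0.43 and 0.61 (adjusted p of at least 0.728). Without colon HN 1 and LF 2 the colon values were 0.20, 0.22 and 0.25, and without LF 2 alone those of PSMB8 and PSMB9 were -0.052 and -0.039. In the same comparison all 6 smooth muscle markers had negative values in both tissues (colon median -2.55, ileum median -2.14), and 6 colon and 5 ileum values had an unadjusted p under 0.05. All 9 T and NK cell markers had positive values in the colon (median 0.41), as had 8 of the 9 in the ileum (median 0.75). Neither tool called a marker of either list, and their part in the values was not tested. The difference of the fibre effect between tissues was called for 0 of 46 genes by both tools, with 0 at an unadjusted p under 0.05. Of all genes, edgeR called 0% and DESeq2 0.0319%, and 2.79% had an unadjusted p under 0.05.

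HN, the diet with both additions, was also set against LF, the diet with neither, in libraries that the NCG comparison uses as well. In the colon 0 of 46 were called by edgeR or DESeq2, beside 0% of all genes in edgeR and 1.46% in DESeq2. There 10 of the 46 and 8.94% of all genes had an unadjusted p under 0.05, and the median of the 46 was -0.32 (-0.36 without colon HN 1 and LF 2). In the ileum 0 of 46 were called by either tool, beside 1.88% of all genes in edgeR and 6.22% in DESeq2. Here 7 of the 46 and 13.1% of all genes had an unadjusted p under 0.05, and the median of the 46 was -0.30. Smooth muscle markers had negative values for 6 of 6 in both tissues (colon median -1.01, ileum median -3.03) and T and NK cell markers positive ones, all 9 in the colon and 7 of the 9 in the ileum. EdgeR called none of these markers, and DESeq2 called 1 smooth muscle marker in the colon and 2 in the ileum, all lower in HN.

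The interaction of NCG with fibre was called for 0 of 46 genes in either tissue by edgeR and DESeq2, beside 0% of all genes in edgeR and, in DESeq2, 0.445% in the colon and 0.174% in the ileum. At an unadjusted p under 0.05 there were 2 in the colon, PSMD10 and PSMG1 (1.28 and 0.87, adjusted p = 0.327 for both), and 0 in the ileum, while 15% of all colon genes and 4.45% of all ileum genes had such a p. The interferon-inducible genes had large negative colon values with wide errors. PSMB8 averaged 105 ± 76.5 CPM in HN, 195 ± 10.5 CPM in HF, 159 ± 101 CPM in LN and 102 ± 77.5 CPM in LF (SD, n = 3 each). Its interaction was -1.52, with -1.62 for PSMB9, -1.29 for PSMB10, -0.81 for PSME1 and -1.24 for PSME2 (adjusted p between 0.383 and 0.484). Without colon HN 1 and LF 2 these were -0.58, -0.60, -0.47, -0.24 and -0.57. In the same colon comparison all 14 genes of MHC class I peptide loading and its regulators and all 9 T and NK cell markers had negative values (medians of -1.30 and -1.70), and all 6 smooth muscle markers had positive ones (median 5.81). The part of these cell types was not tested.

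The partners of the proteasome were read from 3 lists: 22 tested genes of proteasome assembly, shuttling and regulation, 12 of ubiquitin and its activation, and 14 of MHC class I peptide loading and its regulators. Between colon and ileum, where 28.4% of all genes tested were called and 12.5% were higher in the colon, 3 of the 22 were called, all higher in the colon: PAAF1, a further chaperone of the 19S base (0.35), the ubiquitin ligase UBE3C (0.26) and the shuttle RAD23B (0.26). Of the 12 ubiquitin genes, 2 were called higher and 2 lower. The conjugating enzymes UBE2D1 (0.44) and UBE2D2 (0.30) were higher in the colon, and RPS27A (-0.40), which encodes ubiquitin joined to a ribosomal protein, was among the lower ones. EdgeR called 0 of the 14 class I genes, with 2 at an unadjusted p under 0.05, and DESeq2 called 2, both lower in the colon.

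With NCG in the ileum, where 5.85% of all genes tested were called (5.42% higher) and 21.5% had an unadjusted p under 0.05, edgeR called 1 of the 12 ubiquitin genes, 0 of the 22 assembly genes and 1 of the 14 class I genes. UBA6, an enzyme that activates ubiquitin, was higher with a log2 change of 1.01 ± 0.14 (adjusted p = 0.0033). It had 20.2, 24.3 and 17.6 CPM in HN and 26.1, 17.3 and 21.0 CPM in LN, against 10.4, 11.8 and 11.7 CPM in HF and 9.69, 9.10 and 9.08 CPM in LF, and the libraries with and without NCG did not overlap. UBA6 also passed in ileum HN against LF (1.11, adjusted p = 0.0291). Of the 12 ubiquitin genes 8 had negative NCG values in the ileum, with a median of -0.20, and DESeq2 called 1 higher and 2 lower with NCG. ERAP2, which trims peptides for MHC class I, was higher with NCG in the ileum (0.78 ± 0.20, adjusted p = 0.0488). DESeq2 too called 0 of the 22 assembly genes there, and 3 of them had an unadjusted p under 0.05. In the colon, edgeR called 0 genes of the 3 lists with NCG. DESeq2 called 1 ubiquitin gene, lower with NCG, and the genes at an unadjusted p under 0.05 were 3 ubiquitin genes and 0 of the other lists, beside 12.4% of all colon genes.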

How the data were processed

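Poly(A) RNA was sequenced in paired-end mode from colon and ileum. Per the submitters' processing notes, fastp 0.22.0, HISAT2 2.1.0, HTSeq 0.9.1 and the build Sscrofa11.1 were used; settings, strand included, are not given in the sources used here. The authors' deposited values are raw counts per gene and library, without normalization. The deposited FPKM values were made by the authors; they follow from counts, length and library total to a relative difference of at most 2.1e-07 and served as a check. The deposited gene length, a further unit given in bases, per the file headers, was used for levels per length and the length trend. All 49 rows have a RefSeq gene ID and the same start and end in RefSeq.

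Differences were tested on the counts with edgeR 4.0.16 (R 4.3.3): filterByExpr, TMM scaling and quasi-likelihood F-tests on diet means within a tissue (12 libraries) or 8 group means (24 libraries). P-values were adjusted by Benjamini and Hochberg over all genes tested (15103 in the ileum, 15075 in the colon, 15675 in both) at 0.05, and adjusted p-values are edgeR's unless DESeq2 is named. CPM and FPKM in the text are TMM-scaled. The fits were tested on simulated data. Alternatives were RLE scaling, no filter, DESeq2 1.42.0, a loess length offset (span 0.5), a replicate block, and omissions of libraries. The block was the replicate number within a tissue, and the diet with the replicate number in the model of 24 libraries. Of 46 genes, 9 overlap an annotated gene, 8 of them on the opposite strand, so their reads cannot be told apart there.

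Members and lists were chosen with earlier results of these data known. Named by rule were the catalytic pairs, PSME1, PSME2, the called members with the smallest adjusted p (up to 5 in each direction), the highest and lowest gene per length of each role, and called genes of the pathway lists. The other genes named with values, such as those with an NCG change of the opposite sign, those called by DESeq2, PSMD10, PSMD14 and PSMG1, were chosen after their values were seen. Of 143 list genes, 140 were matched; POMP, DDI2 and CR2 were not analysed here. The result of 1 further called list gene is not reported here.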

Additional observations from a re-analysis of the deposited data

How the results depend on the processing

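With NCG, DESeq2 called 2 genes in the colon and 4 in the ileum, where edgeR called 0. When single libraries were left out, edgeR called 0 to 3 in the ileum (3 without LN 1) and 0 to 0 in the colon. Of all genes, the single omissions left between 514 and 958 called with NCG in the ileum, where 884 were called with every library, between 0 and 292 in the colon (292 without LF 2, 2 without HN 1), where 0 were, and between 0 and 480 for ileum HN against LF, where 284 were and where 0 were without the 3 ileum libraries high in FABP6. For colon against ileum, 7 genes were called (2 higher, 5 lower), 11 with the length trend removed (8 higher, 3 lower), 4 without colon HN 1 and LF 2 (chosen after seeing the data), and 3 to 8 in the single omissions. Counts of 3 or 4 came without ileum HN 1, HN 3, HF 3, LF 1 or LF 2, or colon LN 1, LN 2, LF 1 or LF 2. PSMD4 and PSMF1 lost their calls under RLE scaling, without the filter and with the length trend removed (log2 -0.03 and -0.02), and PSMD5, PSMD12 and PSMF1 without the 3 ileum libraries high in FABP6. The cause was not tested.

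Signs turned in single omissions for changes with NCG that had not passed the test. In the colon PSMB8 ran from -0.40 to 0.24, PSMB9 from -0.48 to 0.31, PSMB10 from -0.36 to 0.25, PSME2 from -0.46 to 0.015, PSMC6 from -0.047 to 0.20 and PSMD12 from -0.022 to 0.37, and in the ileum PSME2 ran from -0.20 to 0.18. With high fibre in the colon PSMB8 ran from -0.052 to 0.53 and PSMB9 from -0.039 to 0.73. The count of 42 genes with a negative NCG change in both tissues was 38 with the length trend removed and 42 or 43 under the other scalings, filter, tool and block.

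The labels do not state whether the replicate numbers pair the libraries, and correlations between libraries cannot decide it. Same-numbered libraries of the same diet correlated above 0.1 in 5 of 12 pairs between tissues, beside 9 of 24 pairs with different numbers. Between diets 7 of 18 colon and 8 of 18 ileum pairs did so, beside 11 of 36 and 15 of 36 with different numbers. Within a tissue 8 of 24 libraries correlated best with their own number, and between tissues 10 of 24 did. Within a tissue the number alone was the replicate block. In the model of 24 libraries each block held a colon and an ileum library of the same diet and number. With these blocks, colon against ileum called 3 genes (PSMD4, PSMD5 and PSMD9) and not PSME1 or PSME2 (adjusted p = 0.0617 and 0.0949). The NCG change of PSME2 in the ileum was then -0.043, and the other comparisons called 0, as without blocks. The 0 counts of PSMB11 allow a level of up to 3 counts, which is between 0.143 and 0.279 CPM by library and covers counting error only.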
